A study of Mus musculus with 15 samples.

Results

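The expression of 6 mouse genes tied to eosinophils was followed across heart and liver allografts. They were Siglecf, Epx, Prg2, Ccr3, Ccl11 and Ccl24, which together had 8 of the 41174 probes on the array and made 6 of its 32301 genes. Siglecf was chosen by its readout, since it was selected on its higher intensity in the liver allografts at both days, and its liver values are therefore given as a description with no test. The other 5 genes were chosen for what they are known to do in eosinophils, but with earlier results of these data known. The data came from 15 single-colour Agilent arrays, 3 for each of 5 groups. The heart allografts were C57BL/10 (B10, H-2b) hearts placed in the abdomen of CBA (H-2k) recipients and taken on postoperative day 5 (POD5). The liver allografts were B10.BR (H-2k) livers transplanted in the place of the liver of B10.D2 (H-2d) recipients and taken at POD5 or POD8. All mice were male, their age was not given, and total RNA was taken from whole tissue, so that graft cells and infiltrating recipient cells were measured together. The labels call the heart and liver controls normal tissue, whereas parts of the study's text call them syngeneic grafts, and the strain of the controls was not given. They are called controls here, and the same 3 liver controls served both liver days.

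Eosinophils are granulocytes of type 2 immune responses. They mature in the bone marrow under interleukin 5, leave the blood along the eotaxins, CCL11 and CCL24, which act on the receptor CCR3, and carry granules filled with eosinophil peroxidase (Epx) and major basic protein (Prg2). Siglec-F, the product of Siglecf, is a sialic acid binding surface lectin with inhibitory signalling motifs that marks mouse eosinophils and is also carried by alveolar macrophages. Eosinophils are known in biopsies of rejected organs, and eotaxins can also be made by macrophages, endothelium and fibroblasts.

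The start regions of Siglecf and Ccr3 are shown because these are the only eosinophil surface genes among the members and both have a window in the RefSeq promoter table of GRCm38.p6, which covered 3 of the 6 members (Siglecf, Epx and Ccr3). Each window holds the 250 bases before the start site, read 5′ to 3′ on the gene's strand, and capitals mark GATAA, a core bound by GATA factors, searched on both strands. The Siglecf window is chr7:43351091-43351340 on the plus strand and the Ccr3 window is chr9:124021721-124021970 on the plus strand.
Siglecf: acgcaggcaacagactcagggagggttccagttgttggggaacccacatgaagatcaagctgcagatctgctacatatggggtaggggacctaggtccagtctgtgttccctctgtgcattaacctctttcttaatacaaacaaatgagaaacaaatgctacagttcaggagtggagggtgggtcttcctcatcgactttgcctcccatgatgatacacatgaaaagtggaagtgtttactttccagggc
Ccr3: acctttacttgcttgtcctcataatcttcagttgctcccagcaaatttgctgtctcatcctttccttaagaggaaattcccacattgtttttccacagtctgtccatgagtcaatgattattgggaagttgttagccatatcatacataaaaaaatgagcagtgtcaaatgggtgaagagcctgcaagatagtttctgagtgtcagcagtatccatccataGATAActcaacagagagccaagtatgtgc
GATAA occurred 1 time in the Ccr3 window and 0 times in those of Siglecf and Epx, and 22.6% of the 32851 windows in the table held it on either strand. TTCNNNGAA, the core bound by STAT factors, occurred in none of the windows of these 3 genes and in 7.02% of all windows. The array measured transcripts and not binding at these windows.

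The brightness of the arrays differed between groups and bears on every dim gene below. The 75th percentile of the processed signal, the scanner's background-subtracted intensity, lay between 92.1 and 226 on the liver control arrays. It was 338 to 478 on the arrays of liver POD5 and 384 to 454 on those of liver POD8. It lay between 394 and 710 on the heart allograft arrays and between 1021 and 1247 on the heart control arrays. The scanner software marked 52.5% to 56.9% of probes as well above background on the liver controls and 58.2% to 66.3% on the liver allografts. In the heart these shares were 56.2% to 67.0% in allografts and 68.6% to 70.4% in controls. The tissue labels were borne out by defining markers: the 6 measured hepatocyte markers were well above background on all liver arrays, and the 8 cardiomyocyte markers on all heart arrays. All heart allografts lay on 1 slide and all heart controls on another, so that in the heart a slide difference and a graft difference cannot be told apart. Nothing in the labels states that the 3 arrays of a group came from separate animals, so p-values measure the spread between these samples only.

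Siglecf was well above background in every group except the liver controls. In the heart controls its log2 intensity after quantile normalization was 5.77, 6.46 and 5.24 on the 3 arrays, and in the heart allografts it was 4.62, 5.23 and 4.93. In the liver allografts it was 4.51, 4.73 and 4.51 at POD5 and 4.82, 5.25 and 4.98 at POD8. In the liver controls it was 1.07 on each of the 3 arrays. The liver controls therefore stood below all other arrays, while the liver allografts reached the range of the heart allografts. Ordered by mean intensity, the groups ran from liver controls through liver POD5, heart allografts and liver POD8 to heart controls, and only the step from liver controls to liver POD5 separated neighbours whose arrays did not overlap. The means were 4.59 ± 0.13 (SD, n = 3) at POD5 and 5.02 ± 0.22 (SD, n = 3) at POD8.

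**Figure D1:**
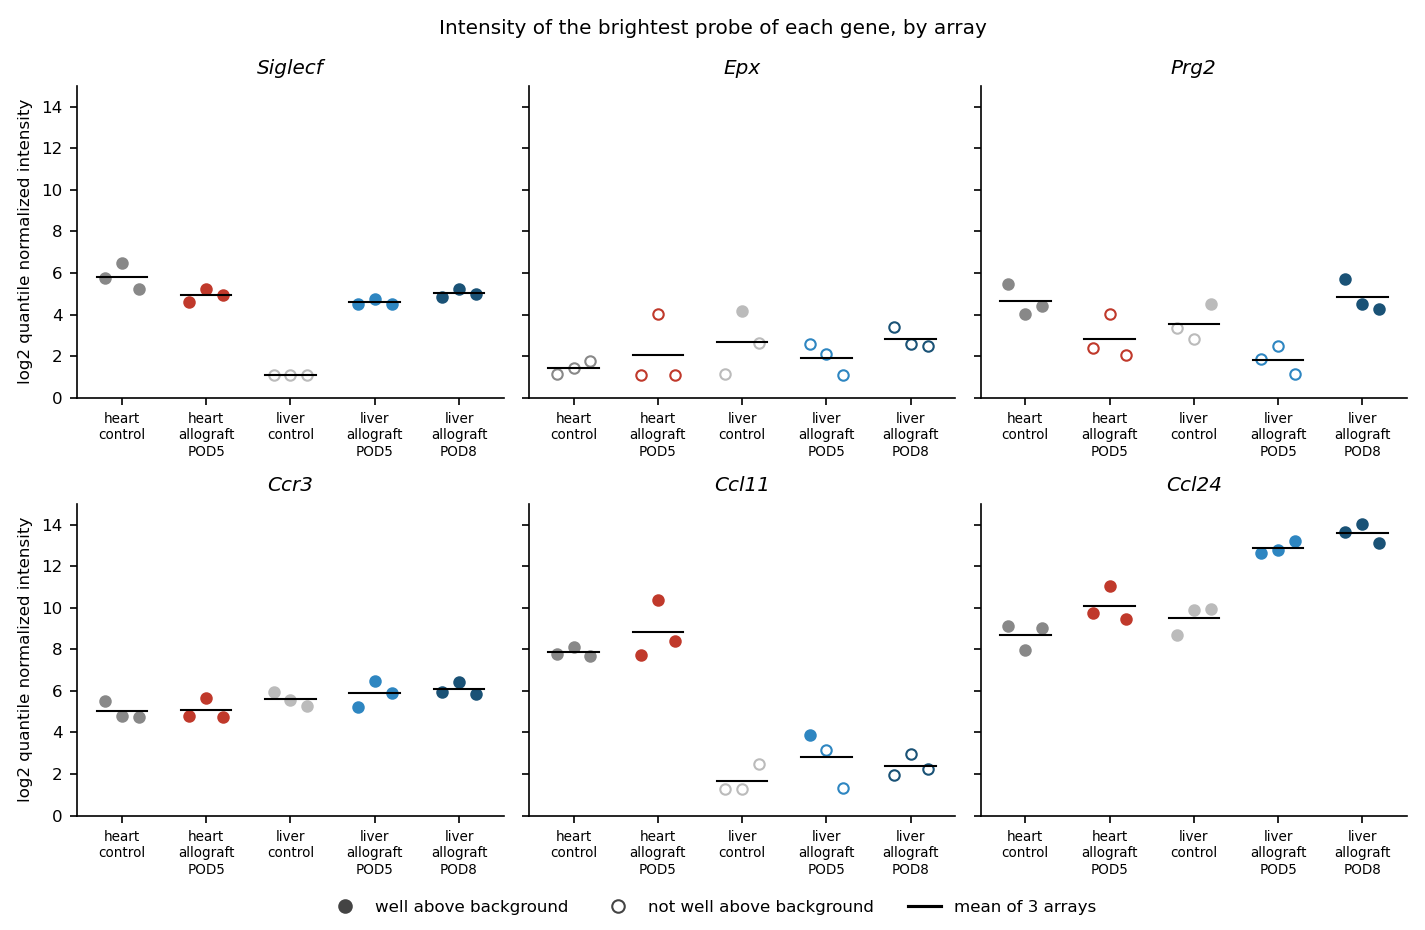
Log2 quantile normalized intensity of the brightest probe of each of the 6 genes (y axis) on the 15 arrays by group (x axis), with filled points well above background, open points not, and a bar at the mean of 3 arrays. Siglecf is filled in every group but the liver controls, Epx is open on 14 of 15 arrays, and only Ccl24 stands high in both liver allograft groups.

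The liver difference of Siglecf rested on a floor in the controls. The processed signal of its probe (A_51_P199475, NM_145581) was 1.22, 1.22 and 2.41 scanner units in the liver controls, with an error from the scanner software of 1.21, 1.21 and 2.41. These signals were nearly the same as their error, where the software puts a spot with no signal over background, and ranked 132, 121 and 110 from the dimmest of the 41174 probes. The SD of 0.0008 between the 3 controls is thus the spread of a floor and not of a measured level. In the liver allografts the signal was 16.4 to 28.9 units at POD5 and 23.8 to 35.3 units at POD8, between percentiles 43.9 and 49.5 of each array's probes. The fitted log2 differences were 3.51 at POD5 and 3.95 at POD8, which depend on where the floor lies. The dimmest level at which a liver control array still marked a probe as well above background was 4.66, 4.09 and 4.34. Against it the POD5 mean of Siglecf was 1.16-fold higher and the POD8 mean 1.57-fold higher. Folds given below as "at least" are such bounds. They set the mean of the brighter group against the higher, on each array, of that dimmest level and the probe's own value. These bounds take no account of the spread between arrays. They are also approximate, since some probes over the dimmest level were not marked. On liver control replicate 1, where it was 4.66, Ltf at 5.25 was not marked. POD8 lay above POD5 on every array, by a log2 difference of 0.43. With a normexp background correction, which shrinks differences near background, the liver differences were 0.51 and 0.62, and with scaling to the 75th percentile 2.52 and 2.85. On the slide that held 2 controls and 2 POD8 allografts the difference was 3.96.

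**Figure D2:**
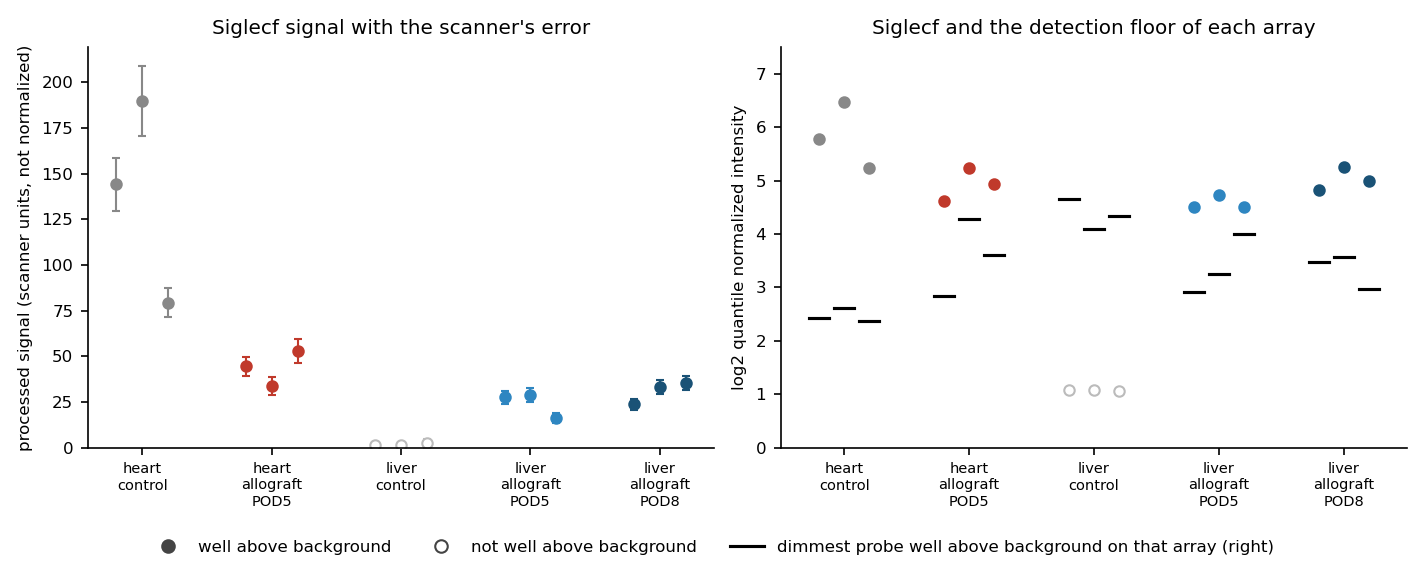
Siglecf on the 15 arrays by group (x axis), as processed signal in scanner units with the scanner's error bar (left y axis) and as log2 quantile normalized intensity beside the dimmest probe marked well above background on that array (right y axis, black lines). The liver control points lie at the floor, 1.07, under black lines at 4.09 to 4.66, and the POD5 points at 4.51 to 4.73 lie at the height of those lines.

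Many probes shared this detection pattern. Of all probes, 16244 were well above background on none of the 3 liver control arrays, and 678 of these, 1.65% of the array, were so on all 6 liver allograft arrays. Among them, 512 were also well above background on all 6 heart arrays, as Siglecf was. No probe, 0 of the 20339 well above background on all 3 liver controls, showed the opposite pattern. The lower brightness of the liver control arrays moved with this pattern, and its part in the Siglecf values was not tested. In whole tissue, fewer cells of a type and less RNA per cell cannot be told apart.

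In the heart the values of Siglecf lay the other way. All 3 allografts lay below all 3 controls, with means of 4.93 ± 0.31 and 5.82 ± 0.61 (SD, n = 3 each). The log2 difference was -0.90 with a standard error of 0.35 and a 95% interval of -1.78 to -0.02, a 1.86-fold lower intensity. Adjusted over all probes by Benjamini-Hochberg, limma's p-value was 0.108, so Siglecf was not called. It was called in a single limma fit of all 5 groups (adjusted p = 0.0216), with the same difference. The spread in that fit takes in the liver arrays that chose Siglecf, among them the controls at the floor. That call therefore gives no separate support. The heart control arrays were the brightest of the series, and the heart allografts were on another slide.

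The granule genes were dim. Epx, the peroxidase of the eosinophil granule, was well above background on 1 of 15 arrays, liver control replicate 2, where its log2 intensity was 4.19. On the other 14 arrays it lay between 1.09 and 4.01. Its log2 differences were 0.63 in the heart (adjusted p = 0.618), -0.73 in the liver at POD5 (adjusted p = 0.670) and 0.18 at POD8 (adjusted p = 0.912) by limma, and the 95% interval at POD5 was -2.87 to 1.42. At this signal no level of Epx could be compared between groups.

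Prg2, the major basic protein of the eosinophil granule, was detected in a different set of groups. In the heart controls its log2 intensity was 5.49, 4.02 and 4.40, all well above background, and in the heart allografts 2.38, 4.01 and 2.05, none well above background. In the liver it was 3.33, 2.85 and 4.50 in controls, with the third array detected, 1.85, 2.46 and 1.12 at POD5, with none detected, and 5.70, 4.53 and 4.26 at POD8, with all 3 detected. Prg2 was thus at background in both POD5 allograft groups and detected in the liver at POD8. In the heart the allografts were at least 2.09-fold lower by the detection bound on the means. The measured log2 difference was -1.82 (95% interval -3.47 to -0.18, limma adjusted p = 0.0890), so Prg2 was not called. Leaving out heart allograft replicate 2, which lay closest to the controls, could only enlarge the difference. It was then -2.43, and the gene was called (limma adjusted p = 0.0196). Prg2 was also called in the limma fit of all 5 groups (adjusted p = 0.0475). With probes kept only if detected throughout a group it was called too (limma adjusted p = 0.0404). Of the heart groups only the controls let Prg2 pass that filter, so this call gives no separate support. Of 19 alternative settings, 16 left the result for the heart difference the same. In the liver the log2 difference from controls was -1.75 at POD5 (limma adjusted p = 0.169). Only the third control was detected in that comparison, so no size or bound is given. At POD8 the log2 difference from controls was 1.27 (limma adjusted p = 0.282) with overlapping groups. From POD5 to POD8 it was at least 2.71-fold higher, with a log2 difference of 3.02 (95% interval 1.74 to 4.29, unadjusted p = 0.0014, adjusted p = 0.227). After quantile normalization all POD5 liver arrays lay above the controls for Siglecf and below them for Prg2. For Prg2 this is an order of values mostly at background. Before normalization its processed signals were 2.59, 2.72 and 13.3 in liver controls and 4.24, 6.29 and 2.35 at POD5, which overlap. No direction of Prg2 between these groups can be read from them.

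Of 13 measured neutrophil markers, 3 had the same order of liver groups as Prg2 with no overlap between controls and POD5, and these were the 3 called lower at POD5, Ngp, Camp and Mpo. At POD5 0.778% of all probes were called lower and 2.38% higher. None of the 13 markers was called higher, and the list's median log2 difference at POD5 was 0.26. The log2 of the list's summed intensity ran from 12.5 to 14.2 in liver controls, 13.7 to 14.7 at POD5 and 13.7 to 14.8 at POD8. Ltf, the lactoferrin of the secondary granule, had a difference of 0.52 at POD5 (adjusted p = 0.683). Ngp, a neutrophil granule protein, was at 3.87, 3.66 and 3.64 in liver controls, 1.06, 1.22 and 1.06 at POD5 and 7.72, 5.90 and 5.40 at POD8. Camp, the cathelicidin of the secondary granule, was at 5.19, 5.52 and 4.37, then 1.18, 1.18 and 2.14, then 8.77, 7.18 and 6.15. Mpo, the peroxidase of the primary granule, was at 7.40, 6.88 and 7.62, then 5.48, 5.43 and 5.62, then 9.71, 8.34 and 7.62. From controls to POD5 limma called all 3 lower, with log2 differences of -2.61 (adjusted p = 0.0056), -3.52 (adjusted p = 0.023) and -1.79 (adjusted p = 0.026). Ngp was well above background on none of these 6 arrays, so neither a size nor a direction is read from its call. Camp was so on 2 controls only, and its size is not a level. The differences of the 3 genes from POD5 to POD8 were 5.22, 5.87 and 3.05 with limma adjusted p-values from 0.21 to 0.23. The part of these genes in the Prg2 values was not tested.

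Ccr3, the eotaxin receptor of eosinophils, was measured on all 15 arrays by its brighter probe and showed no difference beyond its spread. Its log2 intensity was 5.51, 4.79 and 4.76 in heart controls and 4.77, 5.67 and 4.77 in heart allografts. In the liver it was 5.96, 5.54 and 5.26 in controls, 5.25, 6.49 and 5.88 at POD5 and 5.96, 6.43 and 5.86 at POD8. Groups overlapped in each comparison. The log2 differences were 0.05 in the heart (95% interval -0.82 to 0.92), 0.29 in the liver at POD5 (-0.65 to 1.22) and 0.50 at POD8 (-0.14 to 1.13), with limma adjusted p-values of 0.924, 0.702 and 0.322. The second Ccr3 probe was well above background on none of the 15 arrays.

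Ccl11, eotaxin-1, was detected on every heart array and on 1 liver array. In heart controls its log2 intensity was 7.80, 8.12 and 7.67, and in heart allografts 7.70, 10.37 and 8.39. Allograft replicate 2 stood apart, and the groups overlapped. The log2 difference was 0.96 (95% interval -0.82 to 2.74, limma adjusted p = 0.352), and without that replicate it was 0.19. The liver array was a POD5 allograft at 3.90. The other liver arrays lay between 1.26 and 3.15, below all heart arrays. The liver differences were 1.12 at POD5 (adjusted p = 0.456) and 0.71 at POD8 (adjusted p = 0.417).

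Ccl24, eotaxin-2, was the member called in the liver. Its brighter probe measured 8.68, 9.90 and 9.93 in liver controls, 12.66, 12.77 and 13.20 at POD5 and 13.64, 14.03 and 13.14 at POD8. All 6 liver allografts lay above all 3 controls and all 6 heart arrays. At POD5 Ccl24 rose 10.4-fold, a log2 difference of 3.37 with a standard error of 0.40 and a 95% interval of 2.38 to 4.37 (limma adjusted p = 0.0225). At POD8 it rose 17.1-fold, a log2 difference of 4.10 with a 95% interval of 3.01 to 5.19 (limma adjusted p = 0.0125). The second Ccl24 probe rose by 3.29 at POD5 (adjusted p = 0.0324) and 4.21 at POD8 (adjusted p = 0.0177). POD8 and POD5 differed by 0.73 (adjusted p = 0.374). With 3 arrays a group the call depended on single arrays while the difference did not. Leaving out any POD5 allograft gave adjusted p-values of 0.102, 0.0994 and 0.0779 for replicates 1, 2 and 3, and leaving out control replicate 2 gave 0.0606, with log2 differences from 2.94 to 3.57. At POD8 leaving out allograft replicates 1 or 2 gave 0.0790 and 0.0720, with differences from 3.66 to 4.34. No slide held both controls and POD5 allografts, and with the slide as a random block the POD5 difference was 3.36 (adjusted p = 0.0462). Within the slide that held 2 controls and 2 POD8 allografts the difference was 4.55 (adjusted p = 0.0943).

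In the heart Ccl24 measured 9.13, 7.94 and 9.01 in controls and 9.73, 11.03 and 9.45 in allografts. Every allograft lay above every control, by a log2 difference of 1.38 (95% interval 0.02 to 2.73), but the adjusted p-value of 0.109 missed the threshold. In the fit of all 5 groups it was called (adjusted p = 0.0474). The interaction, the heart difference minus the liver POD5 difference, had a 95% interval of -3.56 to -0.43 on the log2 scale, below 0, and was not called (limma adjusted p = 0.0871). It was called with scaling to the 75th percentile (-1.94, adjusted p = 0.0498) and without heart allograft replicate 2 (-2.47, adjusted p = 0.0339).

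**Figure D3:**
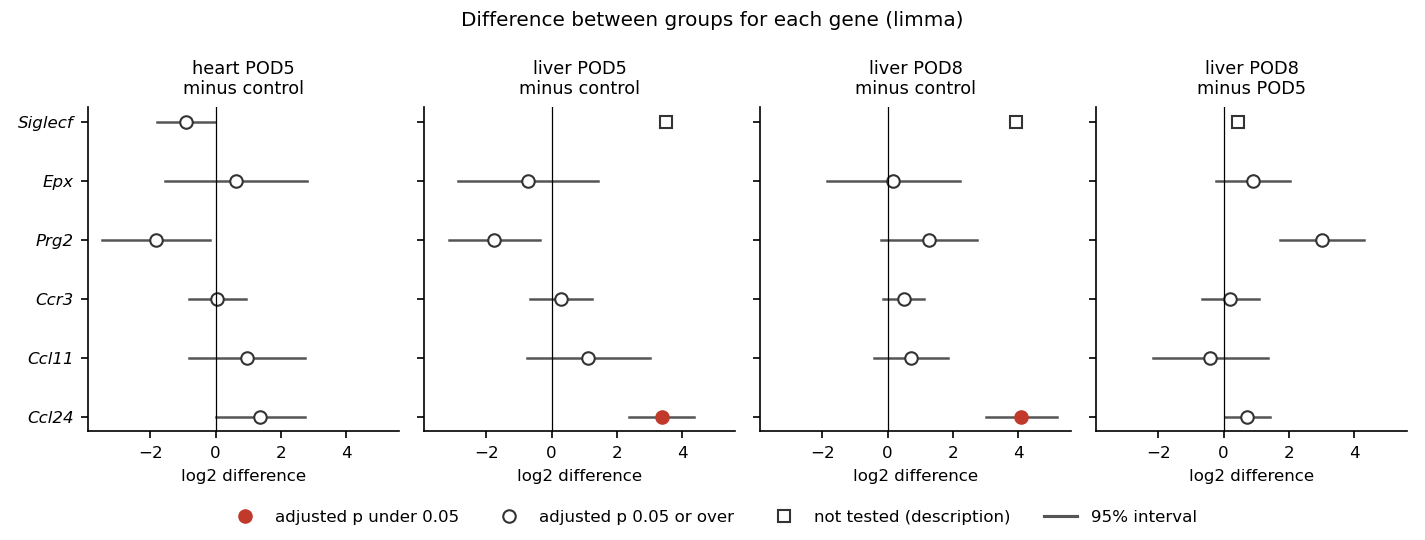
Log2 difference between groups (x axis) for each gene (y axis) in 4 comparisons, with the 95% interval from limma as a line, red points where the adjusted p-value was under 0.05 and squares for the Siglecf values that were not tested. Ccl24 is red in both liver comparisons with controls, at 3.37 and 4.10, and no other point is.

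The calls among the members stand here beside those of the whole array. In the heart 0 of 6 members passed an adjusted p-value of 0.05, where 15.6% of all probes were called higher and 16.4% lower, and 3 of 6 had groups that did not overlap, beside 54.6% of probes. At POD5 in the liver, 1 of the 5 tested members was called, higher, beside 2.38% of probes higher and 0.778% lower, and 2 of 5 did not overlap, beside 31.2%. At POD8, 1 of 5 was called, higher, beside 3.53% of probes higher and 1.44% lower, and 1 of 5 did not overlap, beside 31.4%. Between POD8 and POD5, 0 of 5 members and no probe passed by limma with Benjamini-Hochberg adjustment (0.00% higher, 0.00% lower). At an unadjusted p under 0.05, 5299 probes did, and 1 of 5 members did not overlap, beside 19.7% of probes. In the interaction of organ and allograft at POD5, 0 of 5 members were called, beside 6.41% of probes higher and 7.26% lower. The counts of members were not tested against these shares.

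Some genes of a list of CCR3 ligands and cytokines rose in the liver as well, while interleukin 5 stayed at background. Of 13 measured ligands and cytokines, 1 was called higher at POD5, 4 at POD8, and 6 higher and 1 lower in the heart. The shares of all probes called higher were 2.38% at POD5, 3.53% at POD8 and 15.6% in the heart. Those called lower were 0.778%, 1.44% and 16.4%. Neither these counts nor those of the lists below were tested against the shares. Ccl5, a T cell chemokine that CCR3 also binds, rose by 4.10 at POD5 (adjusted p = 0.010), 4.94 at POD8 (adjusted p = 0.0029) and 5.51 in the heart (adjusted p = 0.00034). Ccl8 and Ccl7, chemokines listed here with the CCR3 ligands, rose at POD8 by 4.56 (limma adjusted p = 0.028) and 4.02 (limma adjusted p = 0.042). Ccl7 was well above background on 2 of 3 controls. Ccl28, also listed with the CCR3 ligands, was not called in the liver. Csf2, the growth factor GM-CSF, was called higher in the heart (adjusted p = 0.013), where all 3 allografts but 1 of 3 controls were well above background, so that the log2 difference of 3.57 depends on the floor. Its liver call at POD8 (1.85, adjusted p = 0.043) rested on 2 of 3 allograft arrays well above background and no control. Il5, the growth factor of eosinophils, and Il9 and Il25 were well above background on none of the 15 arrays. Il3 was detected on all 3 heart allografts and on none of the heart controls, at least 4.90-fold higher (adjusted p = 0.028). The list's median log2 difference was 0.38 at POD5, 0.16 at POD8 and 0.78 in the heart, against medians over all probes of -0.07, -0.08 and 0.02.

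**Figure D4:**
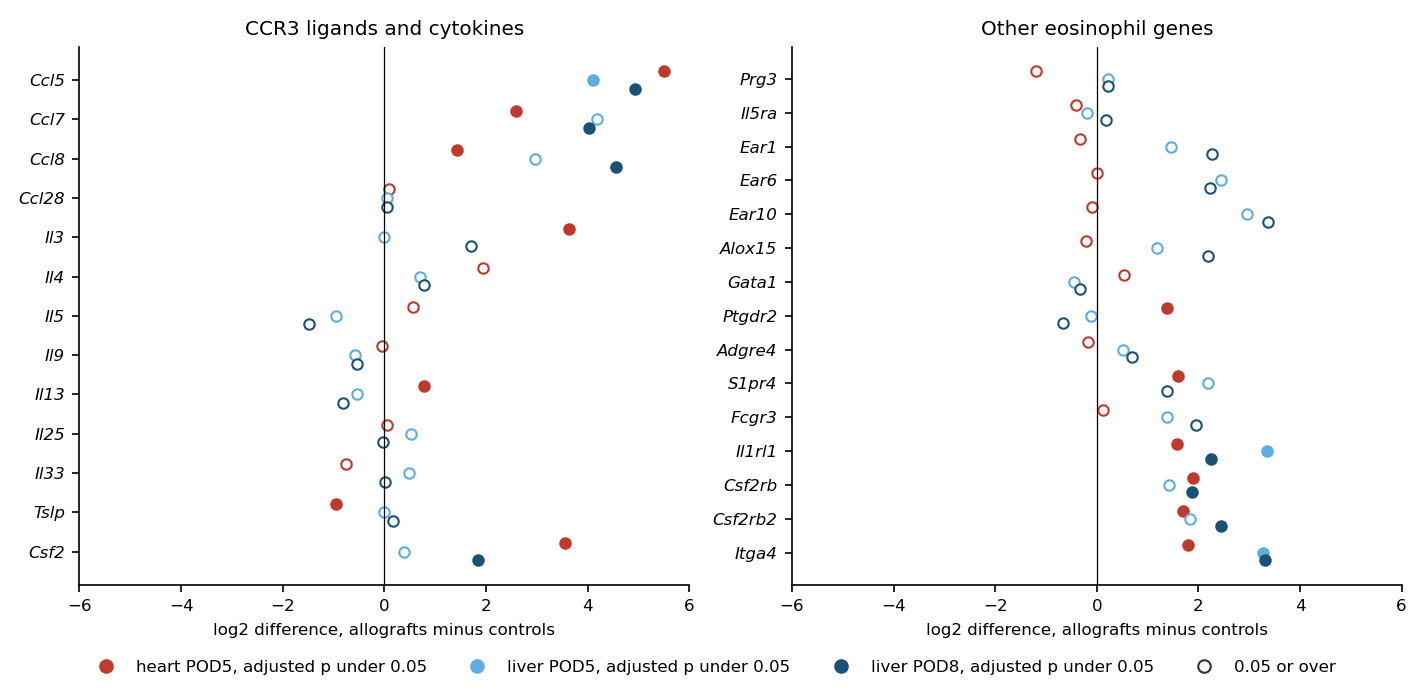
Log2 difference of allografts minus controls (x axis) for the measured genes of both lists (y axis), for heart POD5 (red), liver POD5 (light blue) and liver POD8 (dark blue), filled where limma's adjusted p-value was under 0.05. Ccl5 is filled in all 3 comparisons, and the Ear genes are open in all 3.

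Other eosinophil genes were measured by 15 of 18 listed symbols, and 2 were called at POD5, 4 at POD8 and 6 in the heart, all of them higher. Of all probes, 2.38%, 3.53% and 15.6% were called higher. The listed genes called in the liver are shared with other leukocytes. Itga4, an integrin subunit of lymphocytes, monocytes and eosinophils, rose by 3.26 at POD5 (adjusted p = 0.0094), 3.30 at POD8 (adjusted p = 0.0038) and 1.79 in the heart (adjusted p = 0.017). Il1rl1, the receptor of interleukin 33, was well above background on no liver control. It was at least 6.48-fold higher at POD5 (adjusted p = 0.037), and the bound at POD8 was 3.02-fold (adjusted p = 0.023). Csf2rb and Csf2rb2, near-identical receptor chains that probes may not tell apart, rose at POD8 by 1.87 (adjusted p = 0.026) and 2.44 (adjusted p = 0.043). Il5ra, Prg3 and the measured Ear genes were not called. Ptgdr2, also on the list, lay above all heart controls in the heart allografts, at 7.04, 7.36 and 7.16 against 5.74, 5.90 and 5.75. Its liver groups overlapped. Il5ra was well above background on no array and Prg3, a granule protein, on 2 heart controls only. Ear1, Ear6 and Ear10, ribonucleases of a family whose copies cross-match, had log2 differences of 1.47, 2.44 and 2.95 at POD5 and 2.27, 2.22 and 3.36 at POD8, with adjusted p-values from 0.12 to 0.33. The controls of Ear10 spread from 2.03 to 7.57 and those of Ear6 from 2.97 to 6.30. The list's medians were 1.43 at POD5, 1.95 at POD8 and 0.13 in the heart.

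Of 16 type 2 response genes, 1 was called higher at each liver day, and 6 higher and 2 lower in the heart. Beside these counts, 2.38% of all probes were called higher at POD5 and 3.53% at POD8. In the heart 15.6% of all probes were called higher and 16.4% lower. The liver gene at both days was Pdcd1lg2, the PD-1 ligand PD-L2, at least 1.82-fold higher at POD5 (adjusted p = 0.015). Its bound at POD8 was 5.31-fold (adjusted p = 0.0024), and it rose by 6.01 in the heart on the log2 scale (adjusted p = 0.00076), with 2 of 3 controls well above background. Mrc1, the mannose receptor, and Postn, the matrix protein periostin, fell in the heart, with log2 differences of -3.23 (adjusted p = 0.00035) and -2.76 (adjusted p = 0.0018). The list's medians were 0.34 at POD5, 0.46 at POD8 and 0.71 in the heart.

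Among 7 other Siglec genes, 2 were called at POD8, none at POD5 and 1 in the heart. For this list and the next, the shares of all probes called higher were 2.38% at POD5, 3.53% at POD8 and 15.6% in the heart. In the heart 16.4% were called lower. Cd22, the B cell Siglec, rose by 1.56 at POD8 (adjusted p = 0.036). Siglech, of plasmacytoid dendritic cells, had a difference of 2.29 (adjusted p = 0.013) with 1 of 3 POD8 arrays and no control well above background, so its size is uncertain. Mag, the myelin Siglec, rose in the heart by 2.60 (adjusted p = 0.00061). The list's medians were 0.46 at POD5, 0.75 at POD8 and 0.28 in the heart. Of 14 genes that build sialylated and sulfated ligands or signal below Siglecs, 3 were called higher at POD5 and 4 at POD8, none lower, and 4 higher and 4 lower in the heart. Inpp5d and Ptpn6, the phosphatases SHIP-1 and SHP-1, rose in the liver by 1.95 (adjusted p = 0.016) and 1.19 (adjusted p = 0.031) at POD5. Fut4, a fucosyltransferase, was at least 2.52-fold higher at POD8 (adjusted p = 0.039). Fut7, the fucosyltransferase of selectin ligands, rose by 1.79 (adjusted p = 0.047) at POD5 and 2.98 in the heart (adjusted p = 0.0018). St6gal1, a sialyltransferase, fell in the heart, with a log2 difference of -2.16 (adjusted p = 0.00089). The list's medians were 0.60 at POD5, 0.51 at POD8 and 0.08 in the heart.

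The cell type markers moved as follows beside these genes. Their counts stand beside 2.38% of all probes called higher at POD5, 3.53% at POD8 and 15.6% in the heart. Called lower were 0.778%, 1.44% and 16.4% of all probes. Of 8 measured eosinophil markers, none was called in the heart. In the liver comparisons and the interaction 7 were tested, without Siglecf, and none was called. The log2 of the summed intensity of all 8 ran from 7.22 to 8.88 in liver controls, 8.92 to 9.64 at POD5 and 9.85 to 10.1 at POD8. It ran from 7.86 to 8.89 in heart controls and 7.35 to 8.62 in heart allografts. The list holds Siglecf, Epx, Prg2 and Ccr3 themselves, and Ear1 was the brightest of its genes except on heart control replicate 2 and liver control replicate 1. Ear1 is also made by alveolar macrophages, and its probe may read its near-identical family members. Of 13 T cell markers, 9 were called higher at each liver day and 13 in the heart, and the log2 of their summed intensity ran from 10.9 to 11.3 in liver controls and from 13.8 to 14.6 at POD5. Of 15 macrophage and monocyte markers, 3 were called higher at POD5, 4 at POD8, and 3 higher and 3 lower in the heart. Marco, a scavenger receptor of macrophages, rose by 2.26 at POD8 (adjusted p = 0.038). Of 8 alveolar macrophage markers, which matter because those cells carry Siglec-F, 1 was called at POD5 and 2 at POD8, and their sum in the liver was led by Fabp1, which hepatocytes also make. The genes called were Itgax, the integrin CD11c of dendritic cells and macrophages, by 3.47 at POD5 (adjusted p = 0.0056) and 3.98 at POD8 (adjusted p = 0.00078), and Marco. Car4, the carbonic anhydrase of alveolar macrophages, was well above background on none of the 9 liver arrays. Of 11 basophil and mast cell markers, 1 was called at POD5, 3 at POD8, and 1 higher and 4 lower in the heart, and Ms4a2 was well above background on no array. Among the genes called at POD8, Hdc, the histamine-making enzyme, rose by 1.42 (adjusted p = 0.020). Mcpt8, a basophil protease, was also called (adjusted p = 0.0057), but it was well above background on 2 of 3 POD8 arrays and on no control, so no size is given. The part of these cells in the values of the 6 genes was not tested.

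**Figure D5:**
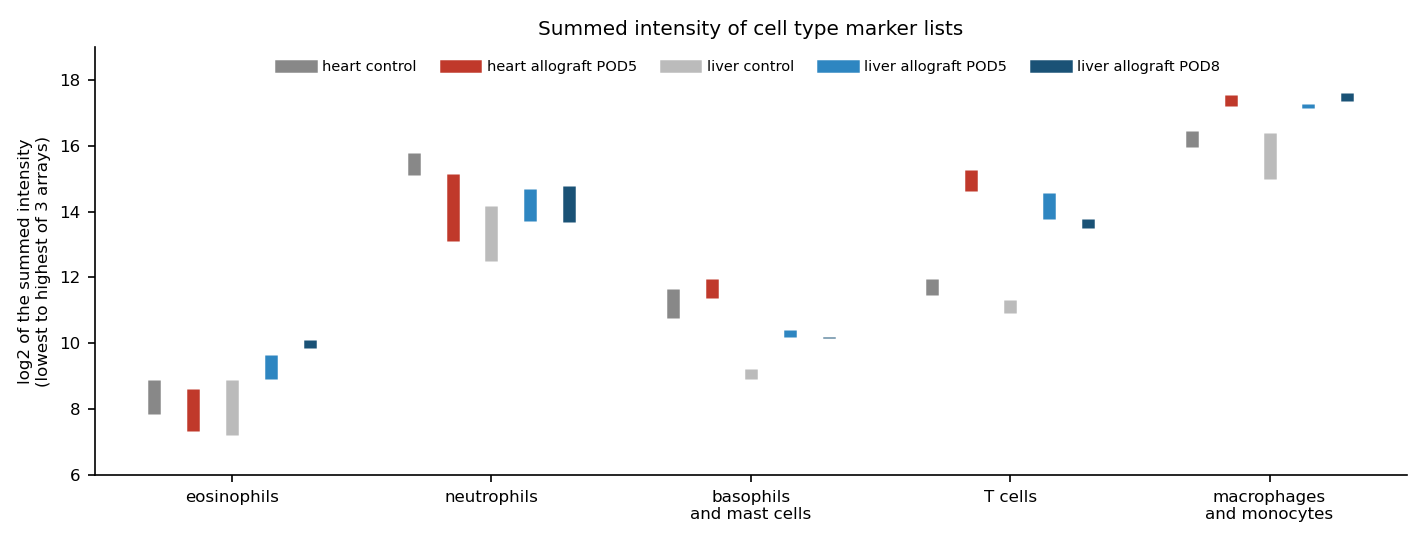
Log2 of the summed intensity of 5 marker lists (x axis), with a bar from the lowest to the highest of the 3 arrays of each group (y axis starts at 6). The eosinophil bars of the heart and the liver controls overlap below 9, and those of liver POD8 lie near 10.

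The genes whose pattern over the 15 arrays was most like a member's were ranked among 20384 genes, as a description, since arrays of a group share tissue and treatment. For Siglecf they were Dgkg (Pearson r = 0.954), AK045716 (0.944), Ikzf2 (0.944), Egr2 (0.932) and Slc1a3 (0.932). Each was lowest in the liver controls: Dgkg, a diacylglycerol kinase, had a mean of 1.38 there against 4.69 at POD5, 4.99 at POD8 and 5.92 in heart controls, and Ikzf2, the transcription factor Helios, 2.19 against 5.75, 5.96 and 6.34. For Ccl24 the likest genes were Gcg (0.967), Apol10a (0.929) and Gm2a (0.928), and Gm2a, a lysosomal activator protein, had means of 10.19 in liver controls, 10.99 at POD5 and 11.28 at POD8. For Prg2 they were ENSMUST00000102977 (0.823), Ngp (0.797) and NAP101459-1 (0.771), and for Ccr3 Micall2 (0.860), NM_009016 (0.830) and Ethe1 (0.829). For Ccl11 they were Naa20 (0.984), Snu13 (0.983) and Pofut2 (0.982), all of them higher in both heart groups than in the 3 liver groups.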

How the data were processed

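RNA from whole heart and liver was labelled with Cy3 and read on 15 single-colour Agilent arrays, 3 per group. The authors deposited processed signal intensity from Feature Extraction 10.5.1.1, with local background subtracted, spatial trends removed and a small positive value given to spots at background, and with no scaling between arrays. From these values, outlier spots (47 to 113 per array) were dropped, log2 was taken, spots of a probe were averaged and arrays were quantile normalized together (R 4.3.3 with the data.table package, version 1.17.8). No spot was saturated. Probes were named by matching the accession in the files to RefSeq transcripts, which gave 26690 of 41174 probes (64.8%) a symbol, and the brightest probe stood for a gene. Each comparison was fitted with limma 3.58.1 on its own arrays, with Benjamini-Hochberg adjustment over all probes and a threshold of 0.05, after the procedure had been tested on simulated data. Besides the members, at most 4 genes of a list were named, those with the largest differences among its called genes, plus genes that define a cell type, and as likest genes the 5 (Siglecf) or 3 with the highest Pearson r. The members and lists were chosen with earlier results of these data known. Alternatives covered scaling, background correction, detection, the fit, slide, replicate number and each array left out. The normexp correction planned on mean signals was not run, and one on median signals was added after seeing the data. Array number limits the precision. Figures used Python 3.11.15 and matplotlib 3.10.9.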

Additional observations from a re-analysis of the deposited data

Results flagged for a closer look

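The values of Siglecf lay in opposite directions in the heart and the liver. Every heart allograft lay below every heart control, with a log2 difference of -0.90, while every liver allograft lay above every liver control, with differences of 3.51 at POD5 and 3.95 at POD8. The difference between the organs was not tested, since Siglecf was chosen by its liver values and the liver controls were at the floor.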

How the results depend on the processing

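The count of members called was 0 in the heart, 1 at liver POD5, 1 at liver POD8, 0 between the liver days and 0 in the interaction. In the heart it was 1 with probes kept only if detected throughout a group (Prg2, which passed through the controls only). In 1 fit of all 5 groups, whose spread takes in the liver arrays that chose Siglecf, it was 3 (Siglecf, Prg2 and Ccl24). At POD5 and POD8 it was 0 with a replicate block, with Bonferroni adjustment and with the methods' t-test after Benjamini-Hochberg, and 0 at POD8 on the slide that held both groups. The methods' t-test without adjustment gave 2 at POD5 and 1 between the days, and the methods' standardized fold change (SFC), a difference of group medians over a spread taken from the 1000 probes nearest in mean signal, gave 2 between the days. Scaling to the 75th percentile gave 1 in the interaction (Ccl24). Leaving out 1 array gave 0 to 1 in each comparison except 0 to 0 between the days. Over all probes, the count at POD5 was 1301, against 0 with the replicate block, 9 with Bonferroni, 573 with slide as a random block and 6205 in the fit of all 5 groups, and leaving out 1 array gave 28 to 1026. At POD8 it was 2046, against 0 with the block, 39, 13022 with 75th percentile scaling and 306 to 2623. In the heart it was 13116, against 21209 with that scaling, 98 with Bonferroni and 7573 to 17228. The replicate numbers do not pair the samples (correlations of deviations from -0.12 to 0.04). With the replicate block the adjusted p of Ccl24 was 0.125 at POD5 and 0.102 at POD8.

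Signs that turned belonged to small differences of genes at or near background or with wide spread. Ccr3 was -0.073 in the heart and -0.027 between the days as the mean of its probes, -0.015 in the heart by SFC, and 0.058 in the interaction with 75th percentile scaling. Epx was -0.30 in the heart by SFC and, at POD8, -0.47 with 75th percentile scaling, -0.042 with normexp and -0.039 by SFC. Ccl11 was -0.25 at POD8 with 75th percentile scaling, and in the interaction 0.38 with that scaling, 0.47 with normexp and 0.42 with slide as a random block. Prg2 was 0.0079 and 0.25 in the interaction with 75th percentile scaling and with the slide block. Leaving out 1 array, Epx ran from -0.35 to 1.11 in the heart, -1.53 to 0.047 at POD5 and -0.59 to 0.97 at POD8. Ccr3 ran from -0.25 to 0.30 in the heart, -0.022 to 0.60 at POD5, -0.11 to 0.52 between the days and -0.55 to 0.074 in the interaction. Ccl11 ran from -1.14 to 0.13 between the days and -0.95 to 0.42 in the interaction, and Prg2 from -0.65 to 0.33 there. The cause was not tested. Scaling to the 75th percentile moved the median of all probes to 0.47 in the heart, -0.39 at POD5 and -0.47 at POD8. Relative to it, Siglecf was -1.13, 2.91 and 3.32 and Ccl24 0.92, 3.72 and 4.55. The planned normexp on mean signals was not run. Signal over background limits Siglecf in liver controls, Epx everywhere, Prg2 in both POD5 allograft groups and the liver controls, and Ccl11 in the liver.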
